A study of Mus musculus with 4 samples.

Results

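The genes described here build and control the contractile actin cytoskeleton, together with known targets of serum response factor (SRF). They were taken as a list of 38 mouse genes: actins, tropomyosins, calponins, caldesmon, myosin II chains, actin crosslinkers and adhesion proteins, cofilins and Srf itself. Of these, 34 were found under exactly 1 gene symbol among the 17097 genes measured, and each was read from the brightest of its probe sets, averaged across all 4 arrays. Tagln, Tagln2, Smtn and Actn4 had no such probe set in the annotation used and were not analysed here. RNA came from cultured mouse brown adipocytes, the heat-producing fat cells, harvested after 6 days of differentiation. There were 2 arrays of cells expressing an shRNA against Blnc1 (shBlnc1), a brown fat long noncoding RNA, and 2 arrays of cells expressing a scrambled shRNA (Scramble), described as biological replicates. The labels give no strain, allele or drug for either group, and nothing on whether the cells were a clone or a pool. A single shRNA is described, and Blnc1 itself is not named in the annotation used, so the depth of its knockdown was not analysed here. All values are log2 expression values, and the small number of arrays limits their precision. The comparison asks which of these transcripts differ when Blnc1 is knocked down.

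Actin filaments are built from globular actin monomers, and in contractile bundles they are coated by tropomyosin, pulled by myosin II and tied to adhesion sites by proteins such as vinculin. SRF is a transcription factor that binds a short DNA element, the CArG box. Its cofactors, the myocardin-related transcription factors (MRTFs), are held in the cytoplasm by monomeric actin and enter the nucleus when monomers are used up in filaments. In fat cell precursors, loss of actin stress fibres and lower MRTF-SRF activity are known to accompany differentiation into adipocytes, and in brown and beige fat cells this pathway is known to oppose the thermogenic programme.

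Cnn3 (calponin 3), Cald1 (caldesmon), Tpm3 (tropomyosin 3), Lima1 and Vcl (vinculin) had the largest rises on the shBlnc1 arrays, at 1.81-fold to 2.32-fold, and the cytoplasmic actin genes Actb and Actg1 were not called. Of the 34 members, 12 rose, 0 fell and 22 were not called by limma, where called means an adjusted p under 0.05 over all genes. Among all 17097 genes, 18.5% were called, 11.4% higher and 7.18% lower. The count of falling members was 0 at the adjusted threshold, and 2 members with a negative change, Actg1 and Actc1, had an unadjusted p under 0.05. The median log2 fold change of the members was 0.22, against -0.04 over all genes tested. Both shBlnc1 arrays lay above both Scramble arrays for 20 members and below them for 3, where such separation was seen for 28.3% and 34.3% of all genes. For 2 members, Myh11 and Cfl2, both groups were at background, a log2 value of 2.55 or less. The 12 members that rose were Cnn3, Cald1, Tpm3, Lima1, Vcl, Flnc, Tpm2, Pdlim5, Tpm1, Cnn2, Acta2 and Myh10, in order of log2 fold change (1.22 to 0.37). Calls were sensitive to the loss of 1 array: 6 members were higher without shBlnc1 replicate 1 and 5 without shBlnc1 replicate 2, against 10 without either Scramble array. After quantile normalization 8 members were higher, and the calls over all genes were then split into 1514 higher and 1564 lower genes, in place of 1941 and 1228.

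**Figure D1:**
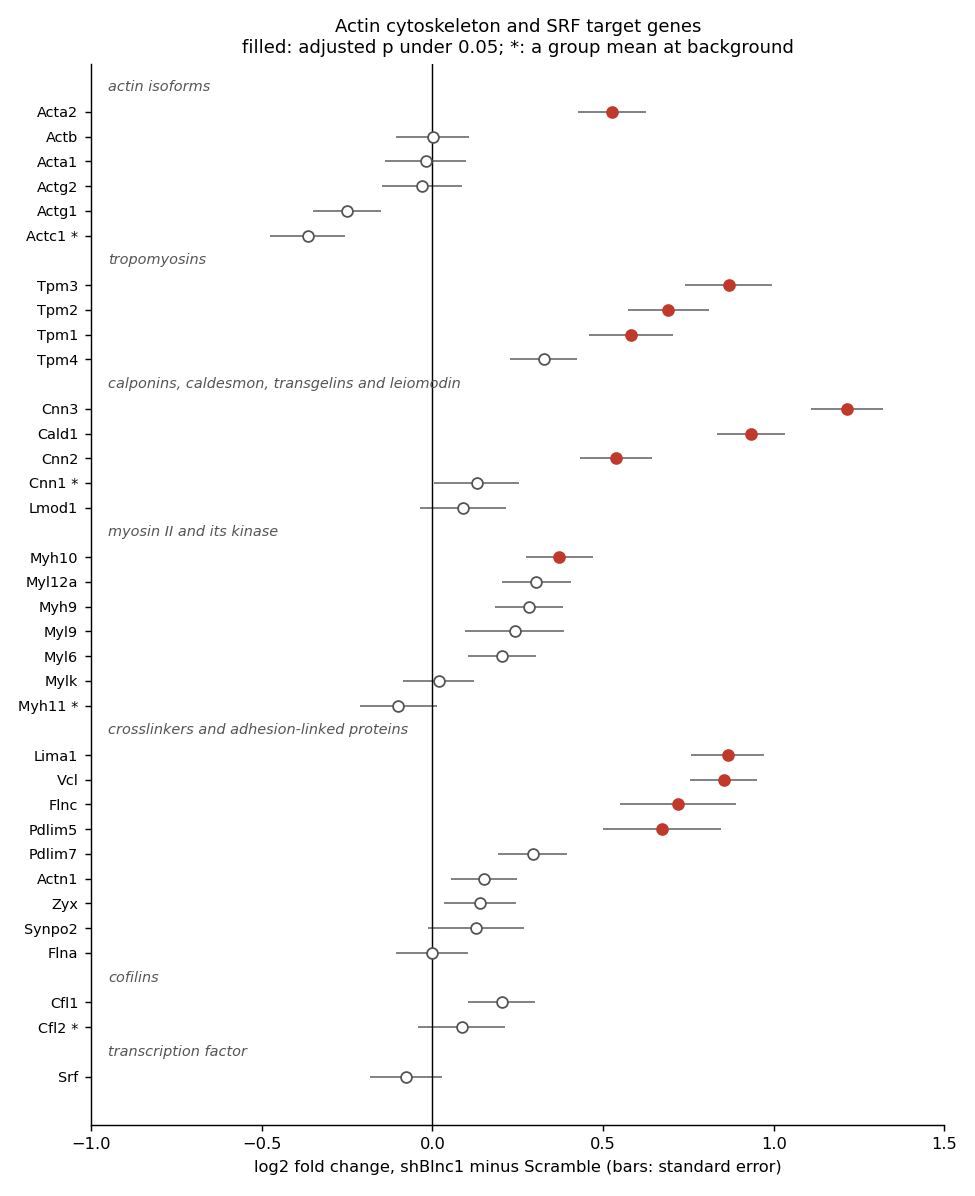
Log2 fold change (shBlnc1 minus Scramble, horizontal axis) of the 34 measured members, grouped by role; bars are standard errors, filled points have an adjusted p under 0.05, and an asterisk marks a gene with a group mean at background. The 12 filled points run from 0.37 (Myh10) to 1.22 (Cnn3), and Actb, Flna and Mylk sit close to 0.

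The CArG box is the element through which SRF acts, so the sequence before each start site was searched for it. The box is CC, then 6 bases that are each A or T, then GG, and it reads in the same form on both strands. Among the 31 measured members that have a promoter in the RefSeq table (build GRCm38.p6), 9 held an exact box in the 250 bases before a start, or 29.0%, against 439 of all 27025 genes in the table, or 1.62%. The list holds genes chosen as SRF targets, so this share describes the list and was not tested. An exact box was present in 3 of the 12 members that rose, Cnn2, Lima1 and Vcl, and in 6 of the 19 members that were not called, Acta1, Actc1, Actg1, Myl6, Myl9 and Srf. Allowing 1 mismatch, 8 of the 12 and 10 of the 19 held a box, against 21.1% of all genes. The box letters of Cnn2, Lima1 and Vcl were identical, CCTTATAAGG, which stood in the same window of 14 genes in the whole table (0.0518%) and of 0 members that were not called. This identity was noticed after the values were seen and is given as a description. The upstream sequences of these 3 genes are shown because they rose and carry the same box, with exact boxes in capitals.
Cnn2, chr10:79988350-79988599, plus strand: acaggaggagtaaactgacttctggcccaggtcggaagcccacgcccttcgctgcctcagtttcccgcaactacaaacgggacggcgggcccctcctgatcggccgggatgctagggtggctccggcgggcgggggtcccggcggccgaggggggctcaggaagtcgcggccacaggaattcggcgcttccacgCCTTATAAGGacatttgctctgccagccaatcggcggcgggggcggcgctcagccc
Lima1, chr15:99820150-99820399, minus strand: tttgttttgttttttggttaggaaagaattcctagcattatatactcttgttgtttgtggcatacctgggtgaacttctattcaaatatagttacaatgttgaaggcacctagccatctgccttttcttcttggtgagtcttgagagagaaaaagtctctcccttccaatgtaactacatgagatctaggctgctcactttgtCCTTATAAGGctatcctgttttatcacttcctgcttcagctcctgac
Vcl, chr14:20929148-20929397, plus strand: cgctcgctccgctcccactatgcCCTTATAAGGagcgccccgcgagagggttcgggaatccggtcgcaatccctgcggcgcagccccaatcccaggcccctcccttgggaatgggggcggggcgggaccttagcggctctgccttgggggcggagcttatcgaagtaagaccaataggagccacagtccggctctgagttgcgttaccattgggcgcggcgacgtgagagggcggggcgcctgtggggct

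The box begins 56 bases before the start of Cnn2, 47 bases before that of Lima1 and 227 bases before that of Vcl. For contrast, the same window is shown for Actg1 and Srf, which hold exact boxes of other letters and were not called, and for Cnn3, which had the largest rise among the members and holds no box in this window, even with 1 mismatch. Srf holds 2 exact boxes, beginning 82 and 62 bases before its start, and Actg1 holds 1, beginning 90 bases before.
Actg1, chr11:120348496-120348745, minus strand: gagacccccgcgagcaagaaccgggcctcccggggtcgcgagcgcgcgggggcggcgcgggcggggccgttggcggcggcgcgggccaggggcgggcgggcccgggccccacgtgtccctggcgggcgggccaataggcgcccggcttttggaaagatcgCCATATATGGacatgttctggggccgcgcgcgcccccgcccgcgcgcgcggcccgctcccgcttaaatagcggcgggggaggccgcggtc
Srf, chr17:46556163-46556412, minus strand: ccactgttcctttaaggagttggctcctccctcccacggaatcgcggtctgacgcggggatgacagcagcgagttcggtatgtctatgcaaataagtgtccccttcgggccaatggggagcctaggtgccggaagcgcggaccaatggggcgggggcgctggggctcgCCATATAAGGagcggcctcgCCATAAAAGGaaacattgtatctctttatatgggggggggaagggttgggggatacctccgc
Cnn3, chr3:121426291-121426540, plus strand: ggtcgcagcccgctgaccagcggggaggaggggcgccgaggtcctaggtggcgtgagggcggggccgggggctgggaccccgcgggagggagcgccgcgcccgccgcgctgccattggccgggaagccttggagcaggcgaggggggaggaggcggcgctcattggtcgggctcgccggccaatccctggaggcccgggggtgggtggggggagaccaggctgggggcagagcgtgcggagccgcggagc

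Among the actin isoforms, 1 of 6 rose and 0 fell, where 11.4% of all genes were called higher and 7.18% lower. Acta2, the smooth muscle alpha actin that marks myofibroblasts and contractile cells, read 9.16 and 9.22 on the shBlnc1 arrays and 8.63 and 8.69 on the Scramble arrays, a 1.44-fold rise (log2 fold change 0.53, SE 0.10, limma adjusted p = 0.0143). The groups did not overlap, but the adjusted p was 0.0739 without shBlnc1 replicate 1 and 0.108 without shBlnc1 replicate 2. The probe set of Acta2 is of the s type, which can detect transcripts of related genes, and its 1 other probe set was at background in both groups. Its promoter window held 2 boxes with 1 mismatch each, CCCTATATGG and CCTTGTTTGG. Actb, the cytoplasmic beta actin found in all cells, read 10.87 and 10.84 on the shBlnc1 arrays and 10.93 and 10.77 on the Scramble arrays, so the Scramble arrays enclosed the knockdown values (log2 fold change 0.0005, SE 0.11). Another Actb probe set differed by 0.06 on the log2 scale. Actg1, the cytoplasmic gamma actin, read 9.70 and 9.78 on the shBlnc1 arrays and 9.98 and 10.002 on the Scramble arrays. Its groups did not overlap, and it was not called by limma (log2 fold change -0.25, SE 0.10, adjusted p = 0.131).

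The muscle actins were dim in both groups. Acta1, the skeletal muscle isoform, averaged 2.87 ± 0.03 on the shBlnc1 arrays and 2.89 ± 0.18 on the Scramble arrays (SD, n = 2 each). Actg2, the enteric smooth muscle isoform, averaged 3.35 ± 0.01 and 3.38 ± 0.17 on the same arrays. Actc1, the cardiac isoform, read 2.44 and 2.62 on the shBlnc1 arrays, with a mean at background, against 2.92 and 2.86 on the Scramble arrays (limma adjusted p = 0.0623). Actc1 passed when genes at background in both groups were left out (adjusted p = 0.0485) and when all genes were averaged over their probe sets (0.0467). Across the alternatives run, its adjusted p lay between 0.0467 and 0.317. Actin isoforms are nearly identical as proteins and similar in coding sequence, so probe sets outside their 3' ends may read more than 1 isoform.

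Tropomyosins, the coiled-coil proteins that lie along the filament and set which myosins and severing proteins reach it, were higher in 3 of 4 cases. None of them was lower, and of all genes 11.4% were called higher and 7.18% lower. Tpm3 read 8.59 and 8.87 on the shBlnc1 arrays and 7.92 and 7.80 on the Scramble arrays, a 1.83-fold rise (log2 fold change 0.87, SE 0.13, limma adjusted p = 0.0057). Tpm2 read 7.72 and 7.97 on the shBlnc1 arrays and 7.15 and 7.16 on the Scramble arrays, a 1.61-fold rise (adjusted p = 0.0099, and 0.0756 without shBlnc1 replicate 2). For both genes, shBlnc1 replicate 2 was the higher of the knockdown arrays, and the groups were well apart. Tpm1 read 6.30 and 6.40 on the shBlnc1 arrays and 5.90 and 5.64 on the Scramble arrays, a 1.497-fold rise (adjusted p = 0.0206). Its call was lost without shBlnc1 replicate 1, shBlnc1 replicate 2 or Scramble replicate 2, at adjusted p-values of 0.0783, 0.127 and 0.0503. Tpm4 read 9.39 and 9.33 on the shBlnc1 arrays and 9.02 and 9.05 on the Scramble arrays, with groups that did not overlap, and it was not called by limma (log2 fold change 0.33, adjusted p = 0.0628). Across the alternatives run, the adjusted p of Tpm4 lay between 0.000694, in eBayes with a trend between level and variance, and 0.279, without shBlnc1 replicate 1.

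Calponins and caldesmon bind actin and tropomyosin and restrain myosin on the filament, and this group held the largest changes among the members. Cnn3, the acidic calponin of non-muscle cells, read 8.37 and 8.42 on the shBlnc1 arrays and 7.25 and 7.11 on the Scramble arrays, a 2.32-fold rise (log2 fold change 1.22, SE 0.11, limma adjusted p = 0.00097). Its second probe set rose 2.13-fold, and both are of the x type, whose probes can bind other transcripts. Cald1, caldesmon, read 9.69 and 9.74 on the shBlnc1 arrays and 8.75 and 8.81 on the Scramble arrays, a 1.91-fold rise (log2 fold change 0.93, SE 0.10, adjusted p = 0.00181). The arrays of each group lay close together for both genes, and both kept their call without any 1 of the 4 arrays. Cnn2, the calponin of smooth muscle and non-muscle cells, read 7.22 and 7.34 on the shBlnc1 arrays and 6.79 and 6.70 on the Scramble arrays, a 1.45-fold rise (adjusted p = 0.0159, and 0.0633 and 0.121 without shBlnc1 replicates 1 and 2). Cnn1, the calponin typical of differentiated smooth muscle, averaged 2.55 on the shBlnc1 arrays and 2.42 on the Scramble arrays, at the edge of background. Lmod1, a smooth muscle actin nucleator, averaged 3.25 and 3.16 on the same arrays, with overlapping values.

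Of the 7 genes of myosin II, the motor that pulls on the filaments, and its kinase, 1 rose and 0 fell, with a median log2 fold change of 0.24. The share that rose, 14.3%, is near the 11.4% of all genes called higher. Myh10, the heavy chain of non-muscle myosin IIB, read 8.26 and 8.23 on the shBlnc1 arrays and 7.89 and 7.85 on the Scramble arrays, a 1.29-fold rise (log2 fold change 0.37, SE 0.10, limma adjusted p = 0.0418). Its call did not hold when any 1 array was left out, with adjusted p-values of 0.068 to 0.201, although the log2 fold change stayed between 0.35 and 0.39. Myh9, the heavy chain of non-muscle myosin IIA, read 6.89 and 6.96 on the shBlnc1 arrays and 6.62 and 6.67 on the Scramble arrays (log2 fold change 0.28, adjusted p = 0.0955). The light chain genes Myl12a, Myl9 and Myl6 had log2 fold changes of 0.30, 0.24 and 0.20 with adjusted p-values of 0.0788, 0.287 and 0.203. Myl9 read 6.68 and 6.85 on the shBlnc1 arrays and 6.70 and 6.34 on the Scramble arrays, so its groups overlapped, whereas those of Myl12a and Myl6 did not. Mylk, the kinase that switches on myosin by phosphorylating its light chain, read 6.53 and 6.58 on the shBlnc1 arrays and 6.47 and 6.60 on the Scramble arrays. Myh11, the smooth muscle heavy chain, was at background in both groups.

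Among the crosslinkers and adhesion-linked proteins, 4 of 9 rose and 0 fell, where 11.4% of all genes were called higher and 7.18% lower. Vcl, vinculin, which couples integrin adhesions to actin, read 9.23 and 9.199 on the shBlnc1 arrays and 8.36 and 8.37 on the Scramble arrays, a 1.81-fold rise (log2 fold change 0.85, SE 0.10, limma adjusted p = 0.00241). Lima1, also called EPLIN, which crosslinks filaments and slows their turnover, read 7.49 and 7.39 on the shBlnc1 arrays and 6.52 and 6.63 on the Scramble arrays, a 1.82-fold rise (adjusted p = 0.00294). The arrays of each group were close together for both genes, and both calls held when each array was left out in turn. Flnc, the muscle filamin, read 5.09 and 5.01 on the shBlnc1 arrays and 4.08 and 4.59 on the Scramble arrays, a 1.65-fold rise (adjusted p = 0.0287, and 0.127 and 0.103 without shBlnc1 replicates 1 and 2). Pdlim5, a PDZ and LIM domain adaptor that binds alpha-actinin, read 4.44 and 4.65 on the shBlnc1 arrays and 3.63 and 4.12 on the Scramble arrays, a 1.59-fold rise (adjusted p = 0.0382). This Pdlim5 probe set and that of Flnc are of the x type, whose probes can bind other transcripts. Flnc has no other probe set, so it has no value without the s and x types. The spread between the Scramble arrays was wide for both Flnc and Pdlim5, and Pdlim5 had adjusted p-values of 0.0886, 0.186 and 0.0795 without shBlnc1 replicate 1, shBlnc1 replicate 2 and Scramble replicate 1.

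The other adhesion-linked members were not called. Flna, the ubiquitous filamin, read 5.44 and 5.29 on the shBlnc1 arrays and 5.37 and 5.38 on the Scramble arrays. Actn1, alpha-actinin, read 6.86 and 6.87 on the shBlnc1 arrays and 6.73 and 6.70 on the Scramble arrays (log2 fold change 0.15, limma adjusted p = 0.323). Zyx, the focal adhesion protein zyxin, had a log2 fold change of 0.14, and Pdlim7 one of 0.29 (adjusted p = 0.0893). Synpo2, an actin-bundling protein of muscle, averaged 2.74 on the shBlnc1 arrays and 2.61 on the Scramble arrays, just above background. Of the cofilins, which sever filaments, Cfl1 read 9.27 and 9.29 on the shBlnc1 arrays and 9.05 and 9.10 on the Scramble arrays (log2 fold change 0.20, adjusted p = 0.195), and the muscle isoform Cfl2 was at background. Srf itself read 4.28 and 4.28 on the shBlnc1 arrays and 4.43 and 4.29 on the Scramble arrays (log2 fold change -0.08, adjusted p = 0.651). Its second probe set read 2.96 and 2.34 on the shBlnc1 arrays and 3.14 and 3.16 on the Scramble arrays, and was not called (log2 fold change -0.50, adjusted p = 0.139 over all probe sets).

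**Figure D2:**
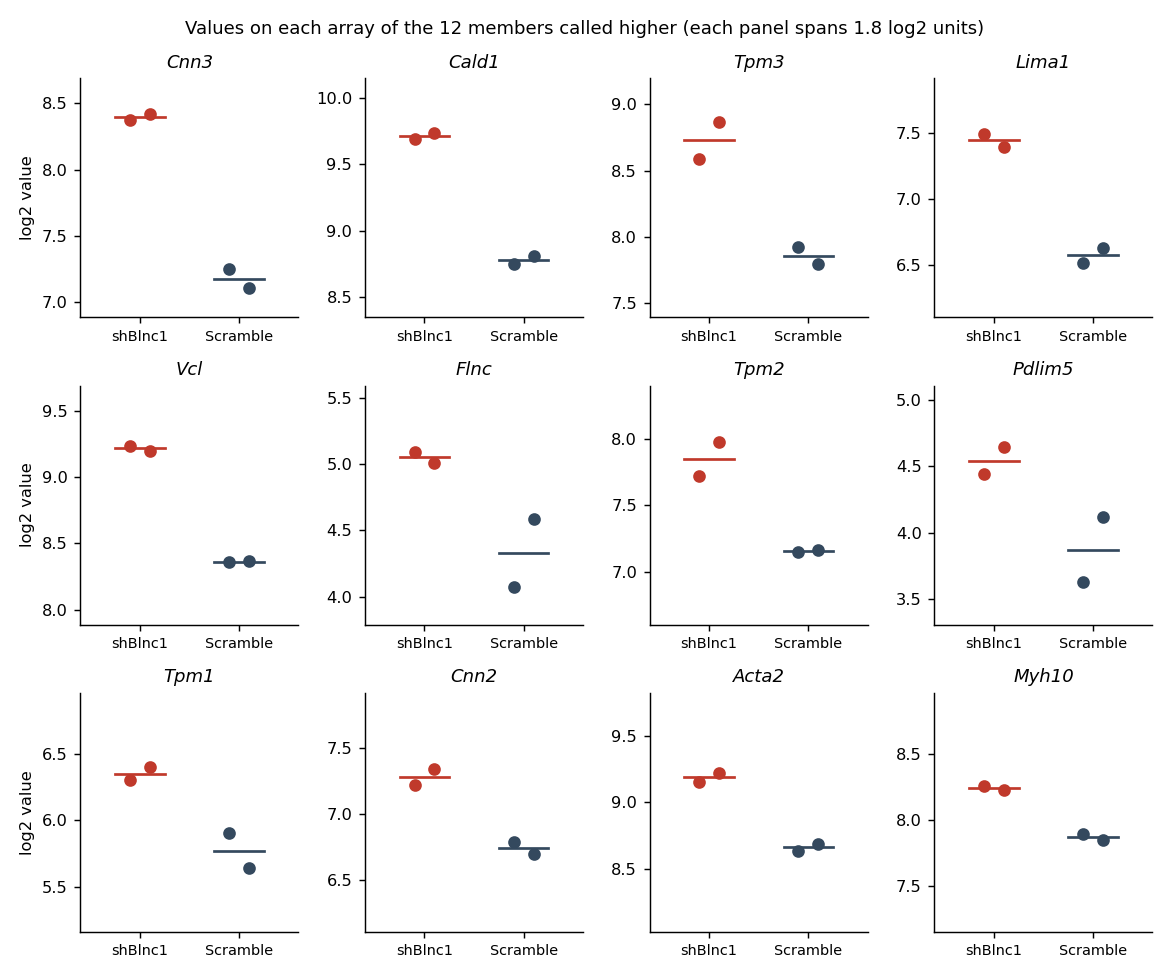
Log2 value on each array (points) and group mean (lines) of the 12 members that rose, shBlnc1 left and Scramble right, in panels of equal height. Both shBlnc1 arrays lie above both Scramble arrays in every panel, and the Scramble arrays stand furthest apart for Flnc (4.08 and 4.59) and Pdlim5 (3.63 and 4.12).

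Different probe sets of 1 gene did not always give the same size of change. The 34 members have 72 probe sets, and 20 members have more than 1. The 9 of these that rose had 23 other probe sets, 15 of them with a group above background. Of the 23, 9 were called higher over all probe sets and 0 lower. Over all 45037 probe sets, whatever their level, 8.73% were called higher and 5.38% lower. These 9 genes were picked because their brightest probe set was called, so the shares are unlike and were not compared by a test. Cald1 had the widest range: 1 of its dimmer probe sets read 6.80 and 7.11 on the shBlnc1 arrays and 4.64 and 4.002 on the Scramble arrays, a 6.22-fold rise (limma adjusted p = 0.00102 over all probe sets), and another rose 3.21-fold. Lima1 likewise had probe sets that rose 3.19-fold and 2.14-fold, and these 4 probe sets are not of the s or x type. Pdlim5 has 5 probe sets: the second by level, of the s type, had overlapping groups and was not called (log2 fold change 0.14, adjusted p = 0.52), and the next, also of the s type, was at least 2.02-fold higher, since its Scramble mean was at background. The other 2 were at background in both groups. Against these, a second Tpm1 probe set of nearly the same level read 5.88 and 5.94 on the shBlnc1 arrays and 6.20 and 5.83 on the Scramble arrays, so the groups overlapped and the sign turned (log2 fold change -0.11). When the probe sets of each gene were averaged, Tpm1, Tpm3, Acta2 and Pdlim5 lost their call, at adjusted p-values of 0.391, 0.232, 0.241 and 0.0505. The members that were not called had 15 other probe sets, and 12 of these had a group above background. Of the 12, 11 had a negative log2 fold change and 0 were called. Among all genes with a group above background, read from their brightest probe sets, 6624 of 12887 had a negative one. The 12 are dimmer probe sets of uncalled members, so these sets are unlike and were not compared by a test. The second probe sets of Myh11 and Synpo2 passed the background filter only through their Scramble means. Those of Myl12a, Pdlim7 and Zyx were near 0, at -0.02, -0.01 and -0.03. The second probe set of Cfl1 and of Actn1 and the dimmest of Myl6 had log2 fold changes of -0.31, -0.30 and -0.39.

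**Figure D3:**
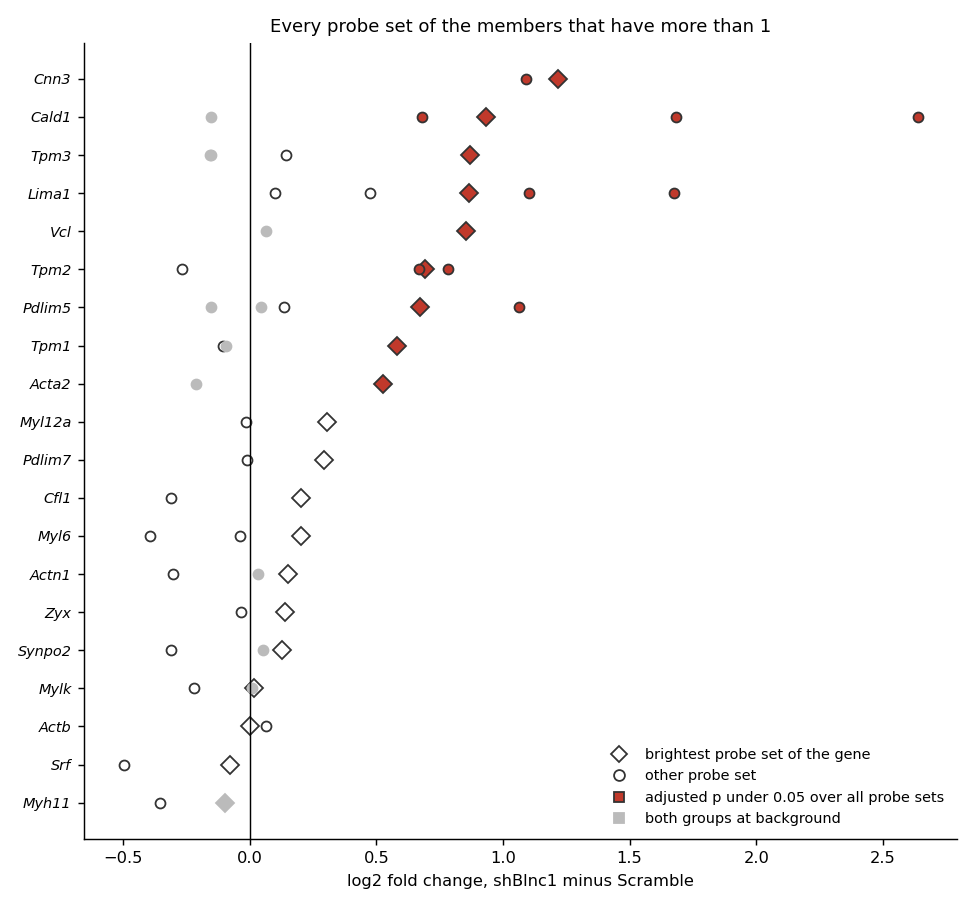
Log2 fold change (horizontal axis) of every probe set of the 20 members that have more than 1; diamonds mark the brightest probe set, red fill an adjusted p under 0.05 over all probe sets, grey fill both groups at background. Red points of Cald1 reach 2.64 and those of Lima1 1.67, while other probe sets of Cfl1, Myl6, Actn1 and Srf lie left of 0.

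Actb is also read by control probe sets spaced along the transcript, which are used to judge RNA quality because labelling starts at the 3' end. The 3' control probe set of Actb had a log2 fold change of 0.03, the middle one -0.16 and the 5' one -0.72. The 5' probe set read 8.94 and 8.82 on the shBlnc1 arrays and 9.75 and 9.45 on the Scramble arrays, and was called lower by limma (adjusted p = 0.0448, with adjustment among the controls). The 3' over 5' ratio of Actb, on the log2 scale, was 1.82 ± 0.08 on the shBlnc1 arrays and 1.07 ± 0.11 on the Scramble arrays (SD, n = 2 each), and that of Gapdh 0.37 ± 0.04 and 0.06 ± 0.04. The 3' over 5' ratios of both genes were higher on both shBlnc1 arrays than on both Scramble arrays. The 5' and middle control probe sets of 18S ribosomal RNA were 4.19-fold and 4.13-fold higher on the shBlnc1 arrays (limma, adjusted p = 0.0351 each, with adjustment among the controls), and its 3' one was not called. The part of these differences in the members' values was not tested.

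**Figure D4:**
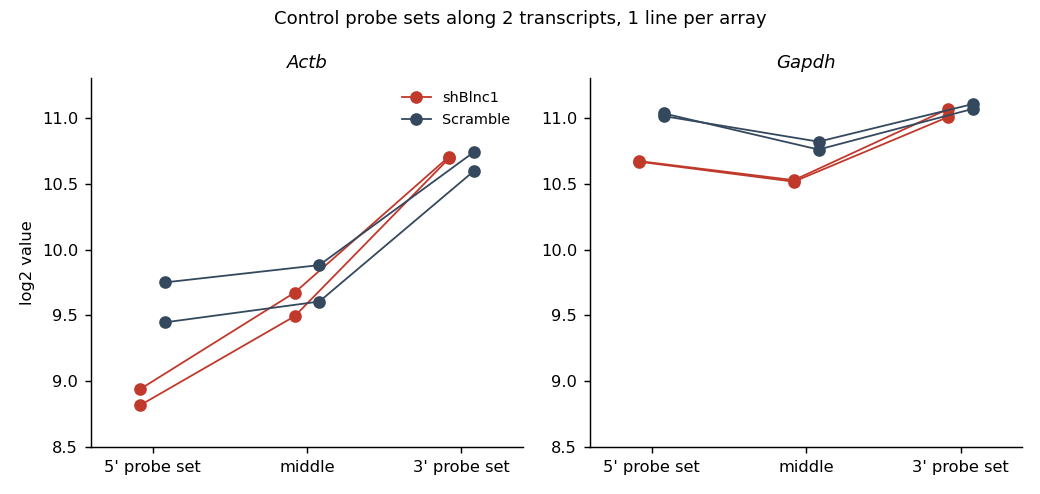
Log2 value of the 5', middle and 3' control probe sets of Actb (left) and Gapdh (right), with 1 line per array. The 3' values of all 4 arrays lie together, while the 5' values of both shBlnc1 arrays lie below those of both Scramble arrays.

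Levels of other cell types' markers were read beside the members. The counts below stand beside 11.4% of all genes called higher and 7.18% lower. The adipocyte genes Adipoq and Fabp4, which fit the labelled cell type, had means of 11.8 and 12.3 on the shBlnc1 arrays and the same on the Scramble arrays, and Ucp1, the uncoupling protein that makes heat, was 3.64-fold lower on the shBlnc1 arrays (limma adjusted p = 0.00103). Of 11 brown adipocyte markers, 6 were lower and 1 (Elovl3) higher. Of 9 fibroblast and preadipocyte markers, 6 were higher (Col1a1, Cd34, Pdgfra, Col3a1, Thy1 and Lum) and 0 lower, with Pi16 at background in both groups. Thy1 and Lum were close to the threshold (limma adjusted p = 0.0476 and 0.0496), and the Scramble mean of Cd34 was at background. The summed linear signal of the 9 was 2536 to 2701 on the shBlnc1 arrays and 1630.2 to 1688 on the Scramble arrays. Most of that sum is Col3a1, with log2 means of 10.98 and 10.29. Of 8 smooth muscle and pericyte markers, 1 (Pdgfrb) was higher and 0 lower. Their summed linear signal was 103.6 to 103.9 on the shBlnc1 arrays and 91.2 to 104.1 on the Scramble arrays. Of the 8, 5 had a negative log2 fold change, and the median was -0.20. Mcam and Rgs5 were among these 5, with an unadjusted limma p of 0.019 and 0.037. The shBlnc1 mean of Rgs5 was at background. Myocd, the smooth muscle SRF cofactor, and Kcnj8 were at background in both groups. Of 12 skeletal muscle markers, 2 were higher (Tnnc2 and Actn3) and 1 was lower (Myod1). Myod1 had a shBlnc1 mean at background, 2.27, and a Scramble mean of 2.70. The Scramble mean of Actn3, 2.73, was also close to background. The summed signal of the 12 was 99.0 to 101.3 on the shBlnc1 arrays and 87.0 to 90.1 on the Scramble arrays. Both groups were at background for Myh2, Tnnt3 and Tnni2. Of 6 cardiac muscle markers 0 were called by limma, with 1 at an unadjusted p under 0.05, and of 6 endothelial and 6 macrophage markers 1 each was higher (Tek and Adgre1). Of 7 hepatocyte markers, 1 (Trf) was higher, at 1.73-fold (limma adjusted p = 0.0099), and 6 were lower, among them Alb, at 4.43 and 2.50 on the shBlnc1 arrays and 6.28 and 5.70 on the Scramble arrays. In bulk samples, a change in the number of cells of a type and a change in RNA per cell cannot be told apart, and the part of fibroblast-like cells in the members' rise was not tested.

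Genes that control SRF moved in part. Of 10 measured regulators of MRTF and SRF, 3 rose and 0 fell, with a median log2 fold change of 0.13. The shares of all genes, 11.4% called higher and 7.18% lower, stand beside this list and each related list below. Scai, a repressor of MRTF, read 3.46 and 4.09 on the shBlnc1 arrays and 2.53 and 2.76 on the Scramble arrays, a 2.18-fold rise (limma adjusted p = 0.0121). The Scramble mean of Scai, 2.65, was just above background, 2.55. Elk3, a ternary complex factor that binds SRF in place of MRTF, rose 2.08-fold (adjusted p = 0.00159) from a Scramble mean of 2.69, also close to background. Phactr2, an actin- and phosphatase-binding protein, rose 1.92-fold (adjusted p = 0.00347). Mrtfa, the main cofactor of this kind in many cells, had a log2 fold change of 0.44 and was not called (adjusted p = 0.0596), and Mrtfb one of 0.11. These 3 genes were also called without shBlnc1 replicate 1 and without shBlnc1 replicate 2, while Phactr2 had an adjusted p of 0.0544 when its probe sets were averaged.

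Of 20 other genes known as SRF or MRTF targets, 8 rose and 1 fell, with a median log2 fold change of 0.26. Itga8, an integrin chain of contractile cells, read 6.53 and 6.57 on the shBlnc1 arrays and 4.13 and 3.90 on the Scramble arrays, a 5.79-fold rise (limma adjusted p = 0.000238). Fhl2, a LIM-only protein that binds SRF, rose 3.90-fold (adjusted p = 0.00078). The matricellular genes Ccn2 and Ccn1, which are shared targets of SRF and of YAP, rose 2.94-fold and 2.42-fold (adjusted p = 0.0013 and 0.00104). Fosb was the lower one, with both groups at background and adjusted p-values of 0.0863 and 0.132 without shBlnc1 replicates 1 and 2. Fhl1, Csrp1 and Csrp2, which are also SRF targets of muscle, had log2 fold changes of -0.07, -0.04 and -0.21 and were not called. With shBlnc1 replicate 1 or 2 left out, 6 genes of the list were called. The list was made with earlier results of these data known, among them that Itga8 was higher. The list is therefore no independent support for the direction of the members. Dstn is counted both in this list and in the next.

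Proteins that hold actin monomers or turn filaments over were higher in 6 of 19 cases and lower in 1. Pfn2, a profilin that feeds monomers to growing filaments, read 4.18 and 4.56 on the shBlnc1 arrays and 2.55 and 2.64 on the Scramble arrays, a 3.42-fold rise (limma adjusted p = 0.000827). The Scramble mean of Pfn2, 2.59, was just above background, 2.55. Pfn1, the widely expressed profilin, was the lower one: it read 7.88 and 7.91 on the shBlnc1 arrays and 8.56 and 8.40 on the Scramble arrays, a 1.502-fold fall (adjusted p = 0.0125, and 0.0815 and 0.0751 without shBlnc1 replicates 1 and 2). Dstn, destrin, a cofilin relative that severs filaments, rose 1.55-fold (adjusted p = 0.0132), and Tmsb4x, thymosin beta-4, which sequesters monomers, rose 1.48-fold (adjusted p = 0.0132). Without shBlnc1 replicates 1 and 2, Dstn had adjusted p-values of 0.0864 and 0.0628 and Tmsb4x of 0.0549 and 0.105, and 2 and 1 genes of the list were called. The median log2 fold change of the list was 0.27.

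**Figure D5:**
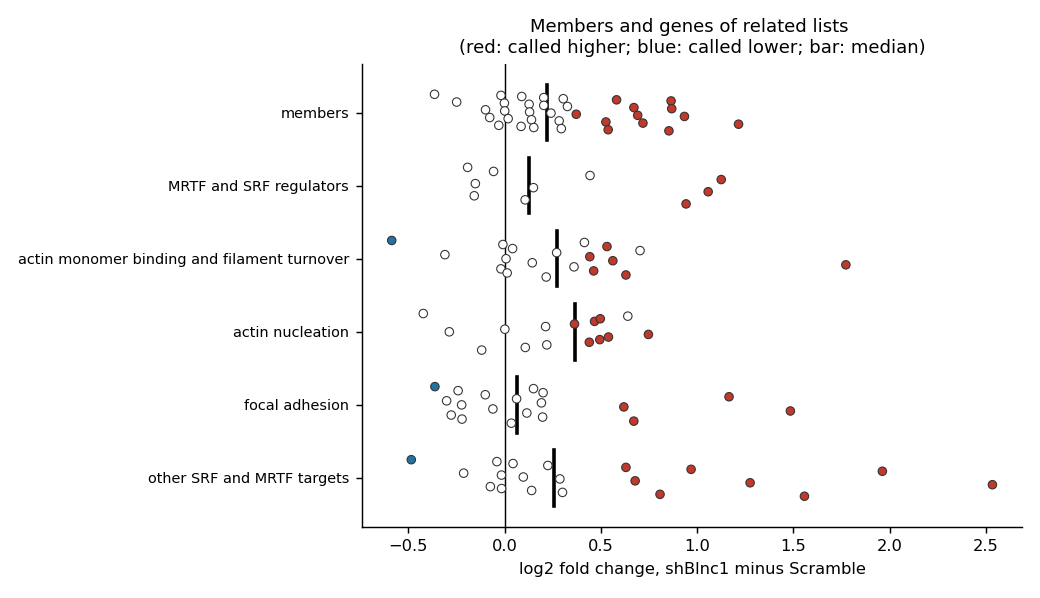
Log2 fold change (horizontal axis) of the 34 members and of the measured genes of 5 related lists; red points were called higher, blue points lower, and bars mark medians. The medians lie between 0.06 (focal adhesion) and 0.36 (actin nucleation), with 0.22 for the members.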

How the data were processed

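Of each RNA, 250 ng was labelled with a kit that transcribes from the 3' end, per the labels' protocols, and hybridised to Affymetrix mouse PM strip arrays, 2 per group. The values are log2 expression values deposited by the authors, 1 per probe set and array. The submitters' processing notes name affy, RMA and limma; versions and exact normalization are not given in the sources used here. That the scale is log2 was read from their range (1.05 to 12.36).

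Of 45141 probe sets, 104 are controls. The platform annotation gives 28898 of the others exactly 1 symbol, 551 several and 15588 none. A gene was represented by its brightest single-symbol probe set (17097 genes). Antigenomic control probe sets, which match no mouse sequence, reached at most 2.55, which was used as background; those richest in G and C were left out. A fold against a group at background is a lower bound computed against this value.

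All 45037 other probe sets were fitted in R 4.3.3 with limma 3.58.1 (lmFit, eBayes, group only, two-sided), adjusted by Benjamini-Hochberg over the genes, at a threshold of 0.05. No p was adjusted over a list alone. Control probe sets were fitted apart. Another gene list that had been planned is not reported here. Promoters came from RefSeq (GRCm38.p6), matched by gene ID for 31 of the 34 members, and the protein comparison that had been planned was not run. Plots used matplotlib 3.10.9.

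The members and lists were chosen with earlier results of these data known. Every member is named. From each related list, up to 4 called genes with the largest change are named, any gene of a count of 5 or fewer, and some uncalled genes picked with their values in view. Marker genes are named where a count was small or a marker defines its cell type, and the called fibroblast markers are all named. The alternatives were quantile normalization, median centring, 2 filters on dim genes, eBayes with a trend, robust eBayes, averaging a gene's probe sets, each probe set on its own, a replicate block and leaving out each array. Leaving out probe sets of the s and x types was chosen after seeing the data.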

Additional observations from a re-analysis of the deposited data

How the results depend on the processing

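The direction and call of 4 members that rose (Cnn3, Cald1, Vcl and Lima1) held under every alternative that gave them a value, apart from single dimmer probe sets of Cald1, Lima1 and Vcl; Cnn3 has only x probe sets and drops out without them. With Tpm3, 5 held without each array in turn. With 2 arrays per group, p-values measure only the spread between these samples, pooled in part over all probe sets by eBayes. The shared prior had 4.93 degrees of freedom, and each probe set's own arrays gave 2. Leaving out each array gave 1050 to 2841 called genes over the whole table, 5 to 10 members higher and a member median log2 fold change of 0.23 to 0.26, with called genes numbering 1 to 8 for monomer binding, 1 to 6 for nucleation and 2 to 4 for focal adhesion. The member median was 0.30 without the dimmest 40 percent of genes (27 members left), 0.26 over genes above background, 0.13 with averaged probe sets and 0.14 without s and x probe sets, where 8 members rose. The number of members called lower was 1 with only genes above background and with averaged probe sets (Actc1), and 1 in eBayes with a trend (Actg1), where 17 rose. Nucleation had 4 called genes after quantile normalization, 11 in eBayes with a trend and 3 with averaged probe sets. After quantile normalization, Tpm1, Myh10, Flnc and Pdlim5 were not called (adjusted p = 0.0501, 0.0763, 0.0577 and 0.0679).

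Some log2 fold changes changed sign. They were 0.046 for Acta1 and -0.11 for Mylk after quantile normalization, and -0.012 for Actb after median centring. With averaged probe sets they were -0.077 for Myl6, -0.064 for Mylk, -0.040 for Actn1, -0.043 for Synpo2 and -0.054 for Cfl1. Without s and x probe sets they were -0.21 for Acta2 and -0.15 for Pdlim5, both then read at background, and -0.31 for Cfl1. Dimmer Tpm1 and Tpm2 probe sets, numbers 2 and 4 by level, gave -0.11 and -0.27. Leaving out each array, the range was -0.079 to 0.080 for Actb, -0.14 to 0.11 for Acta1, -0.15 to 0.088 for Actg2, -0.014 to 0.27 for Cnn1, -0.022 to 0.20 for Lmod1, -0.20 to 0.00057 for Myh11, -0.048 to 0.085 for Mylk, -0.077 to 0.074 for Flna, -0.043 to 0.30 for Synpo2 and -0.070 to 0.24 for Cfl2. The causes were not tested.

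The arrays share replicate numbers 1 and 2, and over genes the deviations of same-numbered arrays from their group means correlated at r = 0.03. With 2 arrays per group the 2 pairs mirror each other, so this cannot show whether the numbers mark a pairing. Here the numbers are used as array names. With the replicate number as a block, 3179 genes and 11 members (all higher) were called, and Myh10 had an adjusted p of 0.0553.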

Other observations

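Genes that start new filaments were higher in part. Of 15 measured genes of actin nucleation, 7 rose and 0 fell, with a median log2 fold change of 0.36. Cttn, cortactin, which stabilises branched filaments, read 8.20 and 8.23 on the shBlnc1 arrays and 7.49 and 7.45 on the Scramble arrays, a 1.68-fold rise (limma adjusted p = 0.00383), and the formin gene Daam1 rose 1.45-fold (adjusted p = 0.0127). Arpc5, a subunit of the Arp2/3 complex that builds branches, rose 1.41-fold (adjusted p = 0.0293), and Fmnl2, another formin gene, also 1.41-fold (adjusted p = 0.0222). Cttn was the 1 gene of the list still called without shBlnc1 replicate 1 or without shBlnc1 replicate 2. Without shBlnc1 replicates 1 and 2, the adjusted p-values were 0.0851 and 0.0838 for Daam1, 0.13 and 0.145 for Arpc5 and 0.124 and 0.115 for Fmnl2. Arpc5 also had 0.0746 without Scramble replicate 2 and Fmnl2 0.0611 without Scramble replicate 1. When probe sets were averaged, Cttn had an adjusted p of 0.104.

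Of 19 focal adhesion genes, 4 rose (Tns3, Lims1, Vasp and Enah) and 1 fell (Lpp). That is 21.1% higher and 5.26% lower, where 11.4% and 7.18% of all genes were so called. The groups stood apart upward for 7 genes and downward for 7, where such separation was seen for 28.3% and 34.3% of all genes. The median log2 fold change was 0.06. Tns3, a tensin that links integrins to actin, read 7.30 and 7.21 on the shBlnc1 arrays and 5.82 and 5.73 on the Scramble arrays, a 2.80-fold rise (limma adjusted p = 0.000438), and Lims1, the adaptor PINCH1, rose 2.24-fold (adjusted p = 0.00139). Vasp and Enah, which lengthen filaments at adhesions, rose 1.59-fold and 1.54-fold (adjusted p = 0.0113 and 0.0234), with adjusted p-values of 0.0804 and 0.0541 without shBlnc1 replicate 1, and Enah had 0.145 without shBlnc1 replicate 2 and 0.0624 without Scramble replicate 1. Lpp had an adjusted p of 0.0457, lost its call when any 1 array was left out (0.0781 to 0.226) and had a positive log2 fold change, 0.26, when its probe sets were averaged.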
